A study of Homo sapiens with 11 samples.

Results

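The EGR family and ARC were followed through 11 arrays of MDA-MB-231 cells. The set was defined by gene symbol: EGR1, EGR2, EGR3 and EGR4, their corepressor gene NAB2, and ARC, 6 genes in all. Of these, 5 were read by a probe set annotated to that symbol alone, with 10 probe sets among the 54675 on the array and 5 genes among 19775. EGR1 and EGR4 had 3 probe sets each, NAB2 had 2, and EGR3 and ARC had 1 each. EGR2 had no probe set in the annotation used here and was not analysed here. On GRCh38.p14, EGR1 lies at chr5:138465479-138469303, EGR3 at chr8:22687659-22693480, EGR4 at chr2:73290929-73293548, NAB2 at chr12:57089114-57095476 and ARC at chr8:142611049-142614479. The genes were chosen with their high values in the ethanol array known, so their values in that array are described below without a test.

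MDA-MB-231 is an established human line of triple-negative breast cancer with little or no estrogen receptor alpha. All cells had 4 h in charcoal-stripped serum and then 3 h of treatment. No other time was measured, so an earlier or later change would not be seen. The untreated control and E2-BSA (1 µM), estradiol coupled to bovine serum albumin, had 2 arrays each. Estradiol (1 µM), its vehicle ethanol (0.1%), the antagonists ICI (10 µM) and G15 (10 µM), each antagonist with E2-BSA, and the carrier BSA (1 µM) had 1 array each. G15 blocks the G protein-coupled estrogen receptor GPER, and ICI is known here by that abbreviation alone. Nothing states that duplicates came from separate cultures. The p-values rest on the spread between the 4 matched pairs of arrays with and without E2-BSA, which may be technical. In RNA of whole cultures, a change in every cell and a change in a share of the cells cannot be told apart.

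EGR genes encode zinc finger transcription factors that are switched on within minutes by growth factors, serum or stress. Signals pass through the MAP kinases ERK1 and ERK2 to ELK proteins and the serum response factor SRF, which bind CArG boxes, and to CREB, which binds cyclic AMP response elements. The EGR proteins bind GC-rich sites and induce NAB2, whose product represses them in turn. ARC, known best as a synaptic plasticity gene of neurons, is an immediate early gene as well and is also induced by EGR proteins.

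The RefSeq promoters used here held no entry for EGR3 or ARC. The promoters of the other measured genes, EGR1, EGR4 and NAB2, are shown. Each is the 250 bases before the RefSeq start on its own strand, 5′ to 3′, and capitals mark the motifs searched: CArG boxes, the CRE core TGACG and the EGR site GCGNGGGCG, each on both strands. No motif match overlapped another in these windows.
EGR1, chr5:138465229-138465478, plus strand, GRCh38.p14: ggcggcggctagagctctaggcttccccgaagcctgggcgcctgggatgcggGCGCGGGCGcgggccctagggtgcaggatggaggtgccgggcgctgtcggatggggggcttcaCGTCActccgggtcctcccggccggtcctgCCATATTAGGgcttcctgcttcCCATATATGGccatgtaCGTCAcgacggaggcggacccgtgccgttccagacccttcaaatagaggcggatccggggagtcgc
EGR4, chr2:73293549-73293798, minus strand, GRCh38.p14: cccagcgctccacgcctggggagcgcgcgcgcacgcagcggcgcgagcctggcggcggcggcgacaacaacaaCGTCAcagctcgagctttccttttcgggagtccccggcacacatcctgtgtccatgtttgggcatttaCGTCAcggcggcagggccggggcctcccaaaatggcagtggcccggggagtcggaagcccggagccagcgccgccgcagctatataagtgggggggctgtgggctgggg
NAB2, chr12:57088864-57089113, plus strand, GRCh38.p14: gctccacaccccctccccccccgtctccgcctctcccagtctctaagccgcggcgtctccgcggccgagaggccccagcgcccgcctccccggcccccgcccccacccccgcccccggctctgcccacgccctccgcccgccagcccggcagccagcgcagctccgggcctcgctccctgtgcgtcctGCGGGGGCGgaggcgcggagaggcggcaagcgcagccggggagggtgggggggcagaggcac
The EGR1 window held 2 CArG boxes, at 105 to 96 and 83 to 74 bases before the start, 2 CRE cores and 1 EGR site. The EGR4 window held 2 CRE cores and neither of the other motifs, and the NAB2 window held 1 EGR site alone. Over 35116 RefSeq promoter windows of the same length, 1.16% held a CArG box, 21.2% a CRE core and 8.41% an EGR site. A match of letters is a description and not a measured binding site.

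The values were centred per probe set, so a gene's value is its log2 distance from its own middle, and levels of different genes cannot be compared. The centring also left no level with which to check the line's identity by its markers. The poly-A spike-ins, bacterial transcripts added before labelling, parted the arrays into a set of 3 (first control, first E2-BSA and estradiol, 1.40 to 1.62 on the log2 scale) and a set of 8 (-0.56 to 0.10). Differences were therefore taken within each set, and the fit across all genes carried a term for the set. That fit, in limma, gave each agent a term and left 3 residual degrees of freedom. A gene was called at a Benjamini-Hochberg adjusted p under 0.05 over all 19775 genes.

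EGR1, the family's best known member, stood at 2.87 in the ethanol array on the centred log2 scale. In the other 7 arrays of that set it was -0.04 in the second control, -0.05 in the second E2-BSA array, 0.06 with ICI, 0.36 with G15, 1.1e-05 with E2-BSA and ICI, 0.44 with E2-BSA and G15, and -0.14 with BSA. In the set of 3 it was -0.17 in the first control, -0.17 in the first E2-BSA array and 0.08 with estradiol. The ethanol array thus lay apart from all 10 others, the nearest being 2.43 lower. Among the remaining arrays both G15 arrays were the highest.

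ARC stood at 2.47 in the ethanol array. In the rest of that set it was 0.02 in the second control, -0.19 in the second E2-BSA array, 0.25 with ICI, -0.02 with G15, 0.18 with E2-BSA and ICI, -0.01 with E2-BSA and G15, and 0.53 with BSA. In the set of 3 it was 0.11 in the first control, 0.01 in the first E2-BSA array and -0.09 with estradiol. Ethanol was again alone, by 1.95 over the next array, which for ARC was BSA. Ranked by the ethanol array minus the second control, EGR1 (2.91) was at place 2 and ARC (2.45) at place 4 of 19775 genes, where the median gene was at 0.05.

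The other family members were much less displaced in the ethanol array. EGR3, which shares the zinc finger domain and binding sites of EGR1, stood at 0.44 there and at -0.34 in the second control, -0.40 in the second E2-BSA array, -0.34 with ICI, -0.43 with G15, -0.40 with both ICI and E2-BSA, -0.55 with both G15 and E2-BSA, and -0.06 with BSA. Within the set of 8 it was highest with ethanol, by 0.78 over the second control, at place 102 of all genes. EGR4, the family member that does not bind NAB proteins, differed from that control by 0.54, at place 348, and its 10 other arrays lay between -0.18 and 0.22. NAB2 differed by 0.13, at place 6537, and its highest array was BSA at 0.34. The ethanol array was the highest of the 11 for 4 of the 5 genes and for 4.27% of all genes. For EGR3 the estradiol array was only 0.04 lower, and for EGR4 the first E2-BSA array only 0.13 lower. Both of these arrays lie in the other set.

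**Figure D1:**
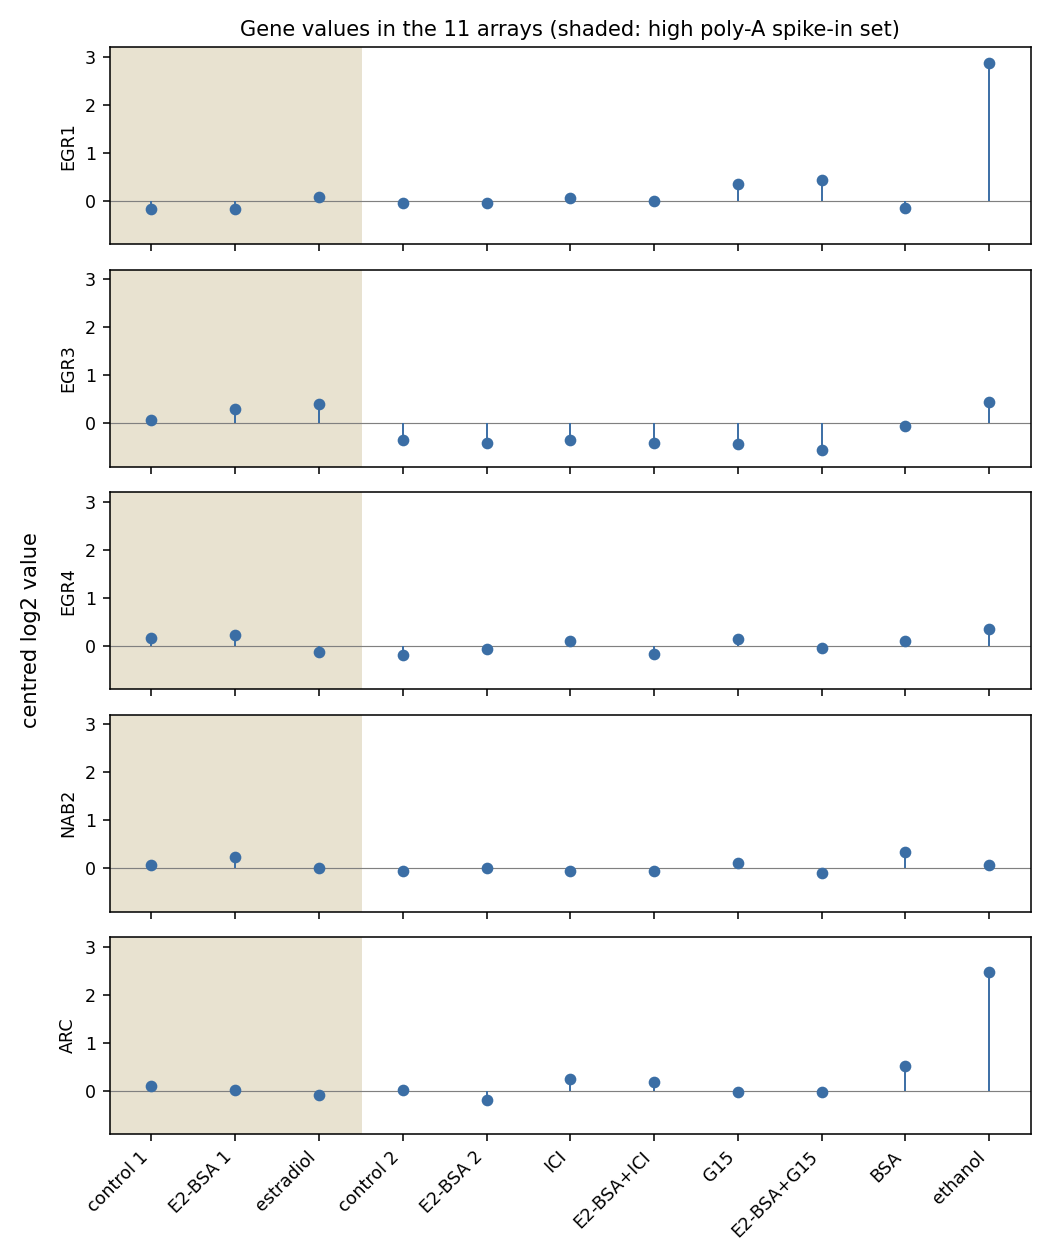
Each panel plots 1 gene's centred log2 value (vertical axis) in the 11 arrays (horizontal axis), as the mean of its probe sets, with the set of 3 arrays shaded. EGR1 (2.87) and ARC (2.47) stand far above their other arrays with ethanol, while EGR3 is higher in the shaded set and in the ethanol array than in most others, and NAB2 stays at or below 0.34 throughout.

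The spread was taken as limma's moderated SD of each gene, 0.12 to 0.14 on the log2 scale, which is drawn to a trend common to all genes. Before that the residual SDs ran from 0.040 for EGR1 to 0.14 for EGR4. Most neighbours in the order of the arrays did not differ beyond the moderated SD. The steps down from the ethanol array are left out here, since the genes were chosen on it. For EGR1 the step from G15 to estradiol (0.28) exceeded that SD, but it crosses the sets, whose difference the SD leaves out. For ARC the step from BSA to ICI (0.27) did. For EGR3 the steps beyond it were from the first E2-BSA to the first control array (0.24) and from BSA to the second control (0.27). The median of all genes was itself 0.19 higher in the BSA array than in that control. EGR4 had 1 step beyond its SD, of 0.14 beside an SD of 0.13, and NAB2 had 0. The SD is that of 1 array and a difference of arrays spreads more widely, so a step just above it may lie within that spread.

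The 3 EGR1 probe sets were all high in the ethanol array, and elsewhere 201693_s_at ran apart from the others. They differed from the second control by 2.55 (201693_s_at), 2.81 (201694_s_at) and 3.38 (227404_s_at). Over the 10 arrays without ethanol, which share the platform and the division into sets, the correlation of 201693_s_at was -0.24 with 201694_s_at and -6.4e-06 with 227404_s_at, and that of the latter pair was 0.54. Over the 7 arrays of the set of 8 without ethanol, the latter pair correlated at 0.96, and 201693_s_at at -0.17 with 201694_s_at and at 0.03 with 227404_s_at.

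The EGR4 probe sets disagreed in the ethanol array itself. 207768_at stood at 0.97 there and between -0.25 and 0.52 in the other arrays, with the first E2-BSA array the next highest. 207767_s_at stood at 0.19 with ethanol, below the 0.47 of the first control array, and 231575_at at -0.10, below 7 of the other arrays. The difference from the second control was 0.96, 0.71 and -0.06 in that order, so the average of 0.54 describes none of them well. For NAB2 both probe sets were close to the second control, at 0.08 (212803_at) and 0.17 (216017_s_at).

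**Figure D2:**
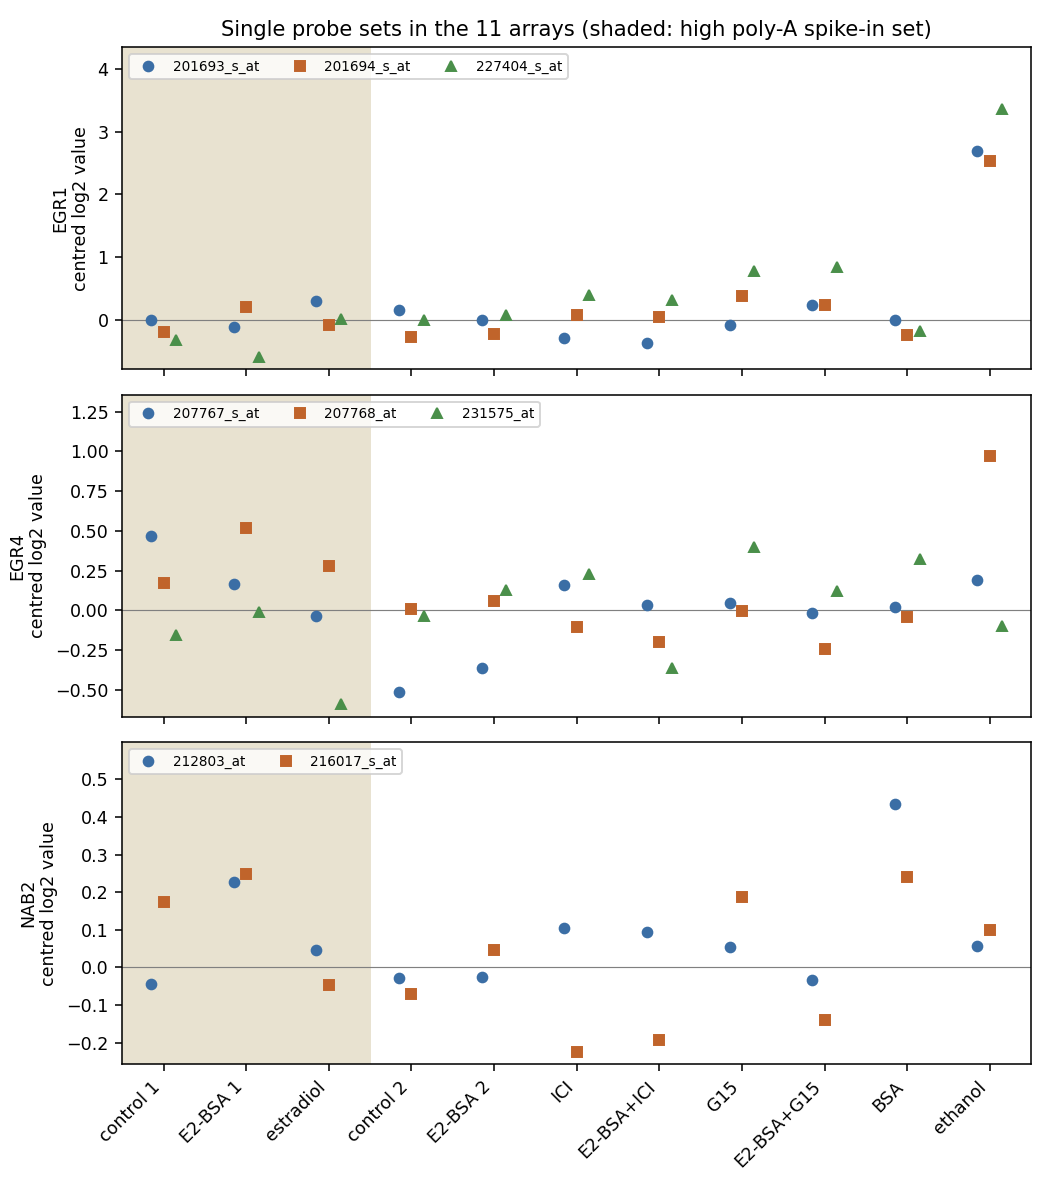
Points give the centred log2 value (vertical axis) of every single probe set of EGR1, EGR4 and NAB2 in the 11 arrays (horizontal axis), with the set of 3 arrays shaded and vertical scales that differ between panels. All 3 EGR1 probe sets are above 2.5 with ethanol, whereas the EGR4 probe sets part at 0.97, 0.19 and -0.10.

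Estradiol, for which ethanol is the labelled vehicle, did not show the high values of the vehicle array. EGR1 was 2.79 and ARC 2.56 higher in the ethanol than in the estradiol array. These arrays lie in different sets, and no ethanol array lies in the set of 3. The estradiol array was entered in the fit as free of ethanol. Its differences below are those of estradiol, with any vehicle it held, from untreated control. Against the control of its own set, estradiol differed by 0.25 for EGR1, 0.34 for EGR3, -0.28 for EGR4, -0.06 for NAB2 and -0.19 for ARC. In the fit the differences of estradiol from control were 0.25 ± 0.17 (SE) for EGR1, with a 95% interval of -0.15 to 0.64 and adjusted p = 0.914, and 0.22 ± 0.16 for EGR3 (adjusted p = 0.933). None of the 5 genes was called, and limma called 0 genes in all (0%), while an unadjusted p under 0.05 was reached by 1397. The set term of the fit was -0.12 ± 0.13 for EGR1 and 0.15 ± 0.14 for ARC. The cause of the gap between the vehicle and hormone arrays was not tested.

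No member differed in the same direction in all 4 matched pairs of arrays with and without E2-BSA. EGR1 differed, in the pair of first arrays, that of second arrays, the pair with ICI and the pair with G15, by -0.00084, -0.0013, -0.061 and 0.076. ARC differed by -0.09, -0.21, -0.07 and 0.0027, lower in 3 of 4. EGR3 was higher in the first arrays (0.24) and lower in the other pairs (-0.07, -0.06 and -0.12). EGR4 was higher without an antagonist (0.06 and 0.12) and lower with ICI (-0.27) or G15 (-0.19). NAB2 differed by 0.17, 0.06, 0.01 and -0.21.

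The fitted E2-BSA differences were all close to 0: 0.0034 ± 0.095 (SE) for EGR1 and -0.09 ± 0.10 for ARC, with 95% intervals of -0.22 to 0.22 and -0.32 to 0.13. For EGR3, EGR4 and NAB2 the values were -0.00092, -0.07 and 0.0093. Limma called none of the 5 and 0 of all genes (0%, with 927 at an unadjusted p under 0.05). Over all genes, 5.14% were higher and 8.26% lower in each of the 4 pairs.

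**Figure D3:**
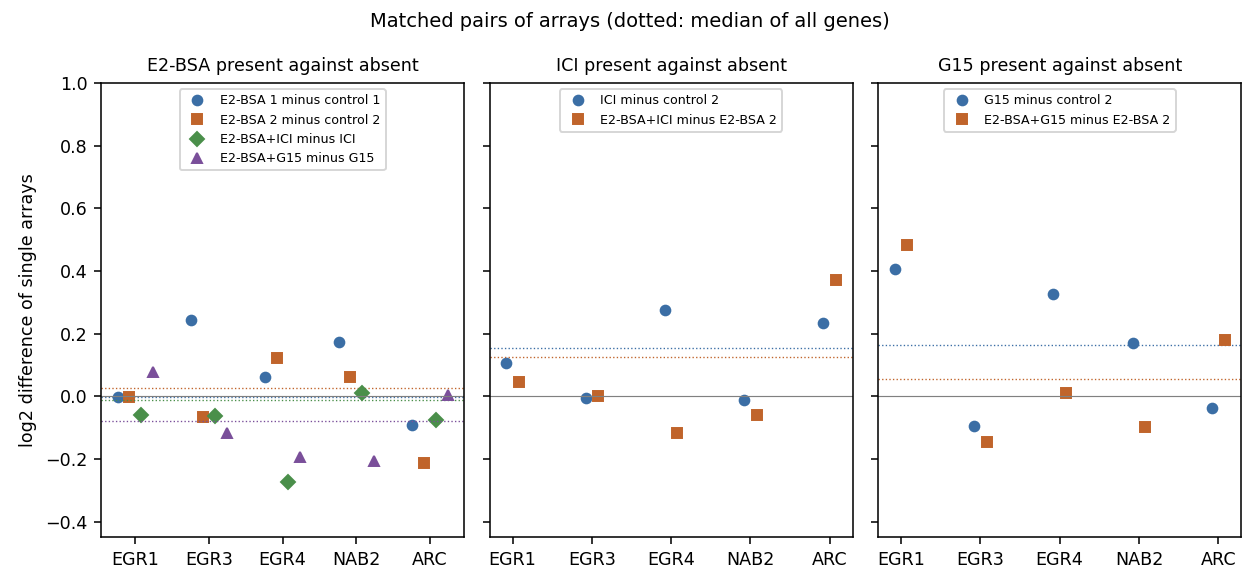
Points give the log2 difference (vertical axis) of single arrays with and without E2-BSA, ICI or G15 for the 5 genes (horizontal axis), 1 symbol per matched pair, and dotted lines give the median of all genes in that pair. EGR1 is higher in both G15 pairs (0.41 and 0.48) and lies near 0 in the E2-BSA pairs.

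G15 gave the highest EGR1 values outside the ethanol array. EGR1 was higher in both pairs, by 0.41 over the second control and by 0.48 over the second E2-BSA array, where the median of all genes was higher by 0.16 and 0.05. The fitted difference was 0.45 ± 0.13 (SE), with a 95% interval of 0.14 to 0.75 that holds for 1 gene taken alone. It did not pass over all genes (limma, adjusted p = 0.482). No other gene passed either: the share called was 0%, and 2042 genes had an unadjusted p under 0.05. Over all genes, 50.1% were higher in both G15 pairs, as were EGR1 and EGR4. With every array centred on its own median EGR1 was at 0.39 ± 0.13 (adjusted p = 0.716).

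Of the 3 EGR1 probe sets, 2 were higher in both G15 pairs. 227404_s_at was higher by 0.79 and 0.76 and 201694_s_at by 0.65 and 0.45, while 201693_s_at differed by -0.23 in one pair and by 0.23 in the other. EGR3 was on the lower side in both G15 pairs, at -0.09 and -0.14, as were 8.79% of all genes, and the fit gave -0.12 ± 0.13. EGR4 was at 0.17 ± 0.13, NAB2 at 0.04 ± 0.12 and ARC at 0.07 ± 0.14, none of them called.

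ICI was accompanied by higher ARC values, by 0.23 over the second control and 0.37 over the second E2-BSA array. The fit gave 0.30 ± 0.14 (SE; 95% interval -0.01 to 0.62; adjusted p = 0.316), and 0.21 ± 0.14 with every array centred on its median. EGR1 was at 0.08 ± 0.13, EGR3 at -0.0021 ± 0.13, EGR4 at 0.08 ± 0.13 and NAB2 at -0.04 ± 0.12. Limma called none of these and 0 of all genes (0%, with 3219 at an unadjusted p under 0.05), and the median gene was 0.14 higher. In both ICI pairs EGR1 and ARC were higher, as were 65.2% of all genes, and NAB2 was lower, as were 9.71%. Of the EGR1 probe sets, 201694_s_at differed by 0.35 and 0.27 and 227404_s_at by 0.40 and 0.24, while 201693_s_at differed by -0.44 and -0.37.

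BSA, the carrier, went with the highest NAB2 and the second highest ARC value of all arrays. ARC was 0.51 above the second control, at place 1388 of 19775 genes, in an array whose median gene was 0.19 above that control. In the fit ARC differed from control by 0.57 ± 0.18 (SE; adjusted p = 0.247), NAB2 by 0.36 ± 0.16 (adjusted p = 0.311) and EGR3 by 0.31 ± 0.16 (adjusted p = 0.368). EGR1 was on the other side of 0, at -0.09 ± 0.17, and EGR4 at 0.18 ± 0.17. None of the 5 was among the genes limma called, 0.354% of all genes. ARC was at 0.44 ± 0.17 with every array centred on its median. There was 1 BSA array, so its own spread was not measured.

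E2-BSA against its carrier rests on the same BSA array. ARC was at -0.66 ± 0.18 (SE; limma, adjusted p = 0.203), NAB2 at -0.35 ± 0.16 and EGR3 at -0.31 ± 0.16, where the median of all genes was -0.19. EGR1 was at 0.10 ± 0.17 and EGR4 at -0.25 ± 0.17. None was called, against 0.308% of all genes.

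EGR3 was higher in the set of 3 than in the set of 8. It stood at 0.06, 0.31 and 0.40 in the set of 3 and at or below -0.06 in the set of 8, the ethanol array aside. The first control was 0.40 above the second and the first E2-BSA array 0.71 above the second. The set term was 0.55 ± 0.13 (SE; limma, adjusted p = 0.0169), a comparison added after the data were seen, in which 24.1% of all genes were called. The call was lost without the second control (adjusted p = 0.0989), the first E2-BSA array (adjusted p = 0.112) or the second (adjusted p = 0.147). EGR4 was at 0.31 ± 0.13 (adjusted p = 0.123) and NAB2 at 0.17 ± 0.12 (adjusted p = 0.354), neither called.

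Other immediate early genes differed between the sets too, while EGR1 (adjusted p = 0.550, limma) and ARC (adjusted p = 0.474) were not called. Of 19 measured genes of a list of serum response genes, 10 were called higher in the set of 3 and 0 lower. Over all 19775 genes 2789 were called higher and 1983 lower. The list was chosen with earlier results of these data known. Among them FOS, the AP-1 subunit, was at 1.69 ± 0.20 (SE; limma, adjusted p = 0.00103) and KLF4, a zinc finger factor, at 2.44 ± 0.17 (adjusted p = 3.35e-04). FOS reached 1.29 in the other 10 arrays, whereas EGR1 stayed at or below 0.44 and ARC at or below 0.53. Whether the set term differs between these genes was not tested.

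Some of the listed immediate early genes were high in the ethanol array too. Limma called 17 genes higher than control and 0 lower (0.086% of all genes), and 0 in all without the second control, without the second E2-BSA array or without the set term. EGR1 and ARC were chosen with this comparison in view, and the lists with earlier results of these data known. Their fitted differences are therefore a description only, 2.91 ± 0.17 (SE) for EGR1 and 2.51 ± 0.18 for ARC. Of the serum response genes, 17 of 19 were higher in the fit, with FOS at 3.04 ± 0.25 (SE), FOSB at 1.80 ± 0.17 and JUNB at 1.76 ± 0.19. FOS, FOSB and JUNB encode AP-1 subunits. The list's median was 0.71, beside 0.02 for all genes. Against the second control alone, 17 of the 19 were higher, beside 11781 of all 19775 genes. The ethanol array was the highest of the 11 for 10 of the 19 listed genes and for 4.27% of all genes.

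Of 13 measured upstream regulators of EGR1, 7 were higher in the fit, with a median of 0.03. Against the second control, the highest was RPS6KA1, an ERK-activated kinase, at 0.39, and the lowest ELK4, a partner of SRF, at -0.32. SRF itself, named after its value was seen, was at -0.05. Among EGR targets 10 of 16 were higher in the fit, with a median of 0.15 and the stress factor ATF3 at 1.38 ± 0.17. The corepressor list, with NAB1 and the NuRD subunit genes, had 3 of 8 higher. NAB1, named after its value was seen, was at -0.04 from the second control. Cytoskeletal targets of SRF and its MRTF cofactors had 6 of 10 higher, with a median of 0.03. Of neuronal activity genes 7 of 9 were higher, with RGS2, an inhibitor of G protein signalling, at 1.92 ± 0.21. Against the second control alone, 11781 of all 19775 genes were higher. By that measure 7 of 13 upstream regulators, 11 of 16 EGR targets and 3 of 8 corepressors were higher. So were 6 of 10 cytoskeletal and 7 of 9 neuronal genes.

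With ethanol, 2 of 6 mesenchymal markers of the line (median -0.06) and 5 of 8 luminal markers (median 0.04) were higher in the fit. Against the second control alone 1 of 6 and 5 of 8 were higher, beside 11781 of all 19775 genes. With BSA, the serum response list had 1 call, JUNB (1.40 ± 0.19), and the EGR target list 1, the adhesion molecule gene ICAM1 (2.08 ± 0.29). Against that BSA array, the same 2 genes were called lower with E2-BSA, JUNB at -1.33 ± 0.19 and ICAM1 at -2.14 ± 0.29. Calls for BSA over all genes went from 70 to 4 without the second control and to 5 without the second E2-BSA array. With E2-BSA, ICI, G15 or estradiol, 0 genes of any of these lists were called.

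**Figure D4:**
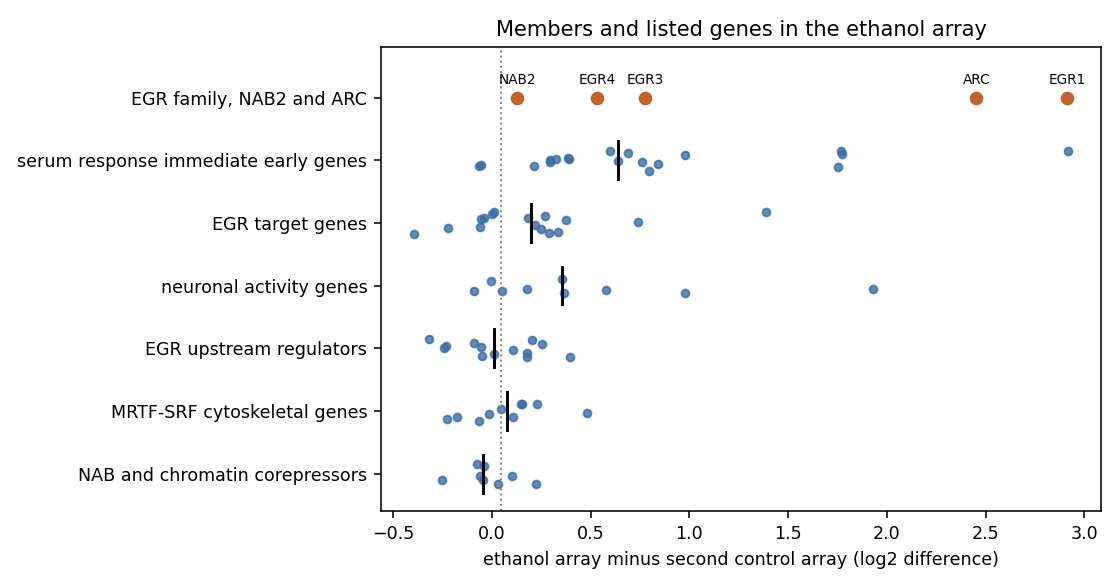
Points give the log2 difference between the ethanol and the second control array (horizontal axis) for the 5 EGR and ARC genes (orange) and for the genes of 6 lists (blue), with black bars at list medians and a dotted line at the median of all genes, 0.05. EGR1 and ARC lie to the right with FOS, while upstream regulators and corepressors spread around the dotted line.

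The genes whose pattern was most like EGR1 were sought among 3567 genes that ranged over at least 1 on the log2 scale. Over the 11 arrays they were FOSB (Pearson r = 0.95), TNFSF9 (0.95), TEX14 (0.94), ID4 (0.94) and PYCARD-AS1 (0.93). For ARC they were FOSB (0.98), CSRNP1 (0.97), BCL6 (0.97), GADD45B (0.93) and WNK4 (0.92). EGR1 and ARC correlated at 0.92. All of these values rest on the ethanol array, in which each named gene was the highest of 11.

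Without the ethanol array EGR1 and ARC no longer ran together, with r = -0.31 over 10 arrays. The genes then most like EGR1 were C1QTNF12 (0.82), IL20RB (0.82), GRB14 (0.81), SLC35E4 (0.78) and ABCB6 (0.76). Those most like ARC were STAT5A (0.89), P2RY8 (0.87), TMEM108-AS1 (0.86), RBM24 (0.86) and EPHX3 (0.86). The lists of like genes for EGR1 and ARC had FOSB alone in common with ethanol and no gene without it.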

How the data were processed

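RNA of 11 MDA-MB-231 samples was labelled and hybridised by the Affymetrix protocol, per the labels' protocols. The deposited log2 values were centred per probe set by the authors. The log base was taken as 2. Summarisation, normalization and background correction are not given in the sources used here. In 51.7% of probe sets, the pair of values closest to 0 had equal size and opposite sign within 1e-05.

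Probe sets with 1 gene symbol (41091 of 54675, 1801 had several and 11777 none) were averaged to 19775 genes. No array was rescaled, since the medians ranged over 0.14, and no probe set was filtered, because centring removed intensity. The poly-A sets were parted at the largest gap in the mean of 24 spike-in probe sets (1.30, the next being 0.39). Models were fitted with limma 3.58.1 in R 4.3.3, with a trended prior variance, terms for each agent and the set, and p-values adjusted by Benjamini-Hochberg at 0.05. The code was tested on simulated data. The residual spread came from how the E2-BSA difference varied between its 4 matched pairs, and single arrays were taken to vary likewise. The gap between duplicates fell in the set term. A real effect of an antagonist on the E2-BSA difference would count as spread.

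Named were the measured members with their probe sets, listed genes that passed or were among the 2 highest or 2 lowest of their list, and the 5 genes most like EGR1 and ARC with and without the ethanol array, among genes with a range of at least 1. Alternatives were other scalings, no set term, the 8 low spike-in arrays and the median of probe sets. Further ones were no trend in the variance and a replicate block. Each array of control, E2-BSA, ICI or G15, and of E2-BSA with either antagonist, was also left out in turn. The ethanol, estradiol and BSA arrays were never left out singly. The comparison of the sets was added after the data were seen. Members and lists were chosen with earlier results of these data known. Promoters are from RefSeq, GRCh38.p14, for EGR1, EGR4 and NAB2. Arrays, not cells, limit the precision.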

Additional observations from a re-analysis of the deposited data

Results flagged for a closer look

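For EGR1, EGR4, NAB2 and ARC, the E2-BSA difference with G15 or ICI present had the opposite sign to both pairs without an antagonist. Each rests on 1 pair per antagonist. These differences between backgrounds were not tested, and the share of all genes that turned likewise was not counted. EGR4 differed by -0.27 with ICI and by -0.19 with G15, against 0.06 and 0.12 without an antagonist. NAB2 differed by -0.21 with G15, against 0.17 and 0.06. EGR1 differed by 0.076 with G15, against -0.00084 and -0.0013, and ARC by 0.0027, against -0.09 and -0.21. The 3 EGR1 values and the ARC value with G15 lay within the moderated SDs of these genes, 0.13 and 0.14.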

How the results depend on the processing

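Of 30 results of the 5 genes outside ethanol and the set term, 0 passed, and 0 of 420 values under alternatives did (lowest adjusted p 0.155, limma). In 10 of them a direction turned, all 0.18 or less in size, and the cause was not tested. Quantile normalization gave 0.027 for EGR3 with E2-BSA, -0.050 and -0.048 for EGR1 and EGR4 with ICI, and -0.075 and -0.033 for NAB2 and ARC with G15. Centring each array on its median gave 0.0055 for EGR3 with E2-BSA, -0.017 and -0.013 for EGR1 and EGR4 with ICI, and -0.023 for NAB2 with G15. The median of probe sets gave -0.024 for EGR1 with E2-BSA and -0.029 and -0.032 for EGR4 with ICI and BSA. Without a set term EGR4 with ICI was at -0.077, and NAB2 and ARC with G15 at -0.049 and -0.0030. In the 8 low spike-in arrays NAB2 with E2-BSA was at -0.046.

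With the replicate number as a replicate block on the 4 control and E2-BSA arrays, limma called 0 genes for E2-BSA. That fit had fewer residual degrees of freedom than the fit of all 11 arrays, so its 0 calls say little. EGR1, EGR3 and EGR4 were at -0.0011, 0.088 and 0.092 in it. First minus second arrays correlated at 0.81 over 19775 genes between the groups, and the replicate numbers match the spike-in sets. They are not known to pair cultures.

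Leaving out 1 array gave -0.021 to 0.025 for EGR1, -0.083 to 0.038 for EGR3 and -0.046 to 0.081 for NAB2 with E2-BSA. It gave -0.047 to 0.042 for EGR3 and -0.055 to 0.21 for EGR4 with ICI, and -0.11 to 0.18 for NAB2 and -0.0076 to 0.15 for ARC with G15. Calls then ran from 0 to 22 for ICI (22 without G15, 6 without E2-BSA with G15) and from 0 to 179 for G15 (179 without the G15 array). They ran from 4 to 76 for BSA, 0 to 75 for E2-BSA against BSA, 0 to 19 for ethanol and 1332 to 5848 for the set. Lowest for each were the fits without the second control or the second E2-BSA array (4 and 5 for BSA, 0 and 0 for the next 2, 1729 and 1332 for the set). Without the ICI or the E2-BSA with ICI array there were 31 and 30 for BSA, 26 and 25 for E2-BSA against BSA and 9 and 9 for ethanol, which had 11 without the first control. Without a set term 5 genes were called for BSA, 0 for E2-BSA against BSA and 0 for ethanol, and quantile normalization gave 36 for ethanol.

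In the ethanol array EGR1 kept 2.53 and ARC 2.24 under quantile normalization, their lowest values. EGR3 ran from 0.53 without a set term to 0.997 under quantile normalization, and EGR4 was at 0.14 by the median of its probe sets. Depth and signal over background are unknown.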
